A study of Mus musculus with 9 samples.

Results

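The 10 genes described here, Apol7c, Apol10b, Tmem123, Nudt17, Fscn1, Trim6, Chic1, Abca5, Eps8l1 and Slc27a2, are apolipoprotein L genes and other genes tied to the maturation of dendritic cells. They are 10 of the 14209 genes in the count table and were chosen by name, because earlier results of these data had them lower in Gα13-deficient and CD97-deficient cells than in wild-type (WT) cells. All 10 passed the filter on low counts, as did 12043 genes of the table. Since the values against WT chose the genes, those values are given as a description with no test. Only the comparison of Gα13-deficient with CD97-deficient cells was tested for them, and it is not wholly free of the choice, because a gene picked for a large fall in one knockout tends to differ from the other. The table holds no resting and matured cells side by side, so whether each gene belongs to a maturation programme was not tested.

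RNA was sequenced from type 2 conventional dendritic cells (cDC2s) of the spleen, 3 libraries for each of 3 genotypes, all on the C57BL/6 strain. In the Gα13-deficient group, Gna13 fl/fl alleles were deleted by Cre under the CD11c promoter, which is active in dendritic cells and in some other cells that express CD11c. The genotype label of these 3 libraries also names Adgre5-/-. The CD97-deficient group is labelled as a knockout of CD97, the product of Adgre5, which the table lists under its older symbol Cd97. The third group is WT. The age and sex of the mice and the way the cells were sorted are not given in the sources used here.

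The cDC2 is the dendritic cell subset best known for presenting antigen to CD4 T cells. CD97 belongs to the adhesion class of G protein-coupled receptors. Gα13 is the alpha subunit of a heterotrimeric G protein and signals to the small GTPase RhoA. Some dendritic cells mature without infection, a process called homeostatic maturation, and then raise the chemokine receptor Ccr7, the surface protein Cd83 and the actin-bundling protein fascin. The apolipoprotein L family has many members in the mouse, most of them on the same chromosome as Apol7c. Apol7c has been described in mouse dendritic cells as a pore-forming protein that acts at phagosomes.

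Promoter sequences from RefSeq (build GRCm38.p6), spanning 250 bases before to 50 bases after the annotated start site, were matched to all 10 genes, 13 promoters in all. The 2 Apol genes and Fscn1 are shown because their promoters held a match to an interferon response repeat, a cAMP response element or a TATA box within 60 bases of the start site. Each is printed 5′ to 3′ on the strand of its gene, with the matched letters in capitals. The Apol7c promoter lies at chr15:77533266-77533565 on the minus strand, the Apol10b promoter at chr15:77596076-77596375 on the minus strand and the Fscn1 promoter at chr5:142960105-142960404 on the plus strand.
Apol7c: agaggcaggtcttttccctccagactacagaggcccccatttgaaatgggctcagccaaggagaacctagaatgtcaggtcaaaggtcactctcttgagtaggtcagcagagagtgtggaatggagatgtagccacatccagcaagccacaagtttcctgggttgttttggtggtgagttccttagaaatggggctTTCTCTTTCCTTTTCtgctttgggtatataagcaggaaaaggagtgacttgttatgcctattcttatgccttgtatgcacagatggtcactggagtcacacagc
Apol10b: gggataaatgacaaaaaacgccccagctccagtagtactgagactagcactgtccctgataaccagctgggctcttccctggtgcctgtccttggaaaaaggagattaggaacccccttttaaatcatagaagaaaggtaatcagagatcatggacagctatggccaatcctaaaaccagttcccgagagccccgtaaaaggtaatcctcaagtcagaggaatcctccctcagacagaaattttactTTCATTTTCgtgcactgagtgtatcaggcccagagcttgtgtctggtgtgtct
Fscn1: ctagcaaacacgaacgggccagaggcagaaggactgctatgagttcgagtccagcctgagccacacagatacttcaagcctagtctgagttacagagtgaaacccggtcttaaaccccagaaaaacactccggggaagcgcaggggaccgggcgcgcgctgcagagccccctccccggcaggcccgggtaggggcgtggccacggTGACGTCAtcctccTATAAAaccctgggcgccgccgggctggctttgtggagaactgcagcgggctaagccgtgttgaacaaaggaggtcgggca
In Apol7c the capitals are a pair of overlapping matches to the interferon response repeat GAAANNGAA, read on the opposite strand, that begin 54 and 48 bases before the start site. Apol10b has 1 such match, which begins 3 bases before the start site. In Fscn1 the capitals are the cAMP response element TGACGTCA, 45 bases before the start site, and the TATA box TATAAA, 31 bases before it.

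The motifs were searched on both strands in all 32851 promoters of the table. The repeat GAAANNGAA was found for 3 of the 10 genes, Apol7c, Apol10b and Eps8l1, and in 8.56% of all promoters. TATAAA was found for 1 of 10, Fscn1, and in 13.6% of all promoters, and TGACGTCA for 1 of 10, again Fscn1, and in 1.79%. The GC box GGGCGG was found for 6 of 10 genes and in 35.7% of all promoters. No promoter of the 10 genes held the AP-1 letters TGANTCA (7.81% of all promoters), the E-box CACGTG (7.15%), the ETS-IRF composite GGAANNGAA (8.24%), the NF-κB consensus (8.46%) or the SRF CArG box (1.63%). Eps8l1 has 3 annotated start sites and Tmem123 has 2, so these genes had more sequence to match. A match describes the letters only. The Apol7c promoter held 0 CpG sites and the Apol10b promoter 4, against 40 for Abca5 and a median of 7 over all promoters.

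The libraries held 5679946 to 13904646 counts, and 3 counts in a library equal 0.216 to 0.528 CPM (counts scaled to a fixed library size). The targeted genes were read first. Gna13 had 114, 96.8 and 91.7 CPM in Gα13-deficient libraries 1 to 3, 227, 217 and 246 CPM in CD97-deficient libraries and 227, 228 and 186 CPM in WT libraries. Cd97 had 1145, 1224 and 1016 CPM in Gα13-deficient libraries, 726, 840 and 438 CPM in CD97-deficient libraries and 1506, 899 and 1299 CPM in WT libraries. Gna13 RNA is thus below WT in every Gα13-deficient library, while Cd97 RNA there overlaps with WT, although the label also names Adgre5-/-. In CD97-deficient libraries Cd97 RNA was below every WT library but remained at 54.1% of the WT mean, a log2 fold change of -0.89 ± 0.28 that edgeR did not call (adjusted p = 0.105) and DESeq2 did. All 12 cDC2 markers had counts in every library, and their summed level was 9660 to 10858 CPM in Gα13-deficient, 9245 to 9730 CPM in CD97-deficient and 10146 to 11737 CPM in WT libraries. By edgeR, 3 of the 12 were lower in Gα13-deficient cells (25%, against 5.24% of all tested genes) and 1 was higher (8.33%, against 5.74%). In CD97-deficient cells 0 of the 12 were called. By Xist and Y-linked genes, the 3 CD97-deficient libraries, Gα13-deficient library 2 and WT library 2 had the female pattern and the others the male pattern, so genotype and sex pattern are partly confounded. Over the whole table, 691 genes were higher and 631 lower in Gα13-deficient than in WT cells, and 583 higher and 444 lower in CD97-deficient than in WT cells (edgeR quasi-likelihood adjusted p under 0.05).

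The 10 genes together took 0.0618 to 0.0745% of all counts in Gα13-deficient libraries, 0.0726 to 0.0839% in CD97-deficient libraries and 0.131 to 0.171% in WT libraries. Each knockout library lay, as a mean over the genes, about 1 log2 unit or more below the WT mean: 1.14, 1.28 and 1.30 below in Gα13-deficient libraries 1 to 3 and 1.21, 1.20 and 1.08 below in CD97-deficient libraries 1 to 3. The 3 WT libraries differed too. WT library 1 lay 0.24 above the WT mean, with 8 of 10 genes above it, and WT library 3 had 8 of 10 genes below it. In bulk RNA, fewer cells of a type that expresses these genes and less RNA per cell cannot be told apart.

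Apol7c (chromosome 15, 77524852 to 77533316, minus strand, mm10) had 129, 51.1 and 84.97 CPM in Gα13-deficient libraries, 114, 103 and 143 CPM in CD97-deficient libraries and 375, 415 and 325 CPM in WT libraries. Every knockout library was far below every WT library, and the knockout groups overlapped. Means were 88.4 ± 39.2 CPM in Gα13-deficient, 120 ± 20.9 CPM in CD97-deficient and 372 ± 44.6 CPM in WT cells (SD, n = 3 each), so that Gα13-deficient cells held 23.8% and CD97-deficient cells 32.3% of the WT level. The edgeR log2 fold change against WT was -2.06 ± 0.32 (SE) in Gα13-deficient and -1.63 ± 0.32 in CD97-deficient cells, which is rank 18 and rank 52 among the falls of the 12043 genes. Of the 50-base words in Apol7c transcripts, 25.6% also occur in other genes, among them Apol7a, Apol7b and Apol7e, so part of its counts cannot be assigned to it with certainty.

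Apol10b (chromosome 15, 77583819 to 77596125, minus strand) was low, with 3.98, 2.26 and 2.28 CPM in Gα13-deficient libraries, 3.43, 4.40 and 5.36 CPM in CD97-deficient libraries and 8.51, 10.5 and 5.10 CPM in WT libraries. These rest on 13 to 35 counts in Gα13-deficient, 29 to 48 in CD97-deficient and 30 to 78 in WT libraries. All Gα13-deficient libraries were below WT, whereas CD97-deficient library 3 was above WT library 3. Its log2 fold change was -1.50 ± 0.34 in Gα13-deficient and -0.87 ± 0.33 in CD97-deficient cells against WT, and 6.11% of its 50-base words occur in Apol10a, Apol11a or Apol11b. Of the 12 other family genes looked up, 4 were in the table. Apol7e, Apol8, Apol11b and Apold1 each had 0 to 13 counts per library and did not pass the filter, so the family is represented here by Apol7c and Apol10b.

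**Figure D1:**
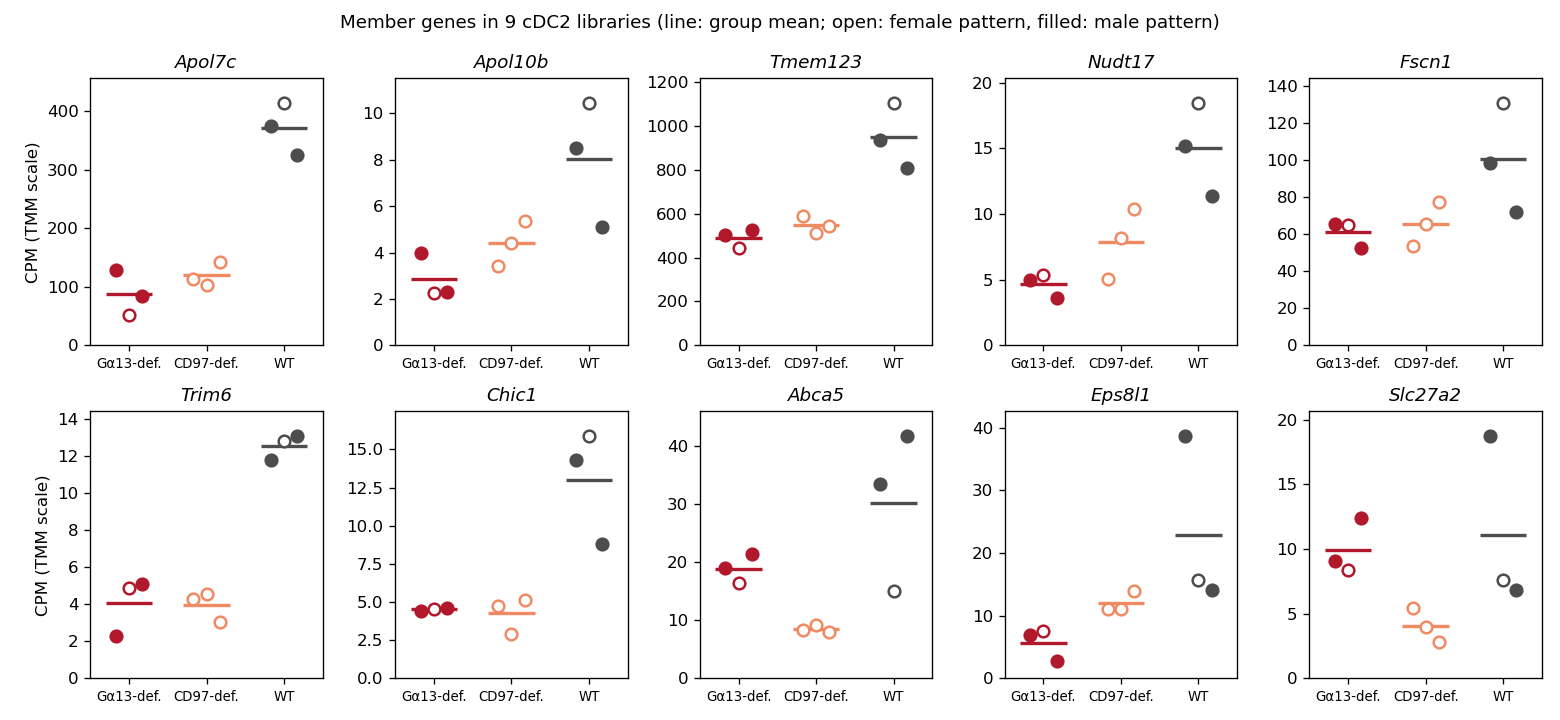
CPM on the TMM scale (vertical axes) of each of the 10 genes in the 3 Gα13-deficient, 3 CD97-deficient and 3 WT libraries; points are libraries, open for the female and filled for the male sex pattern, and lines are group means. Apol7c, Tmem123, Nudt17, Trim6, Chic1 and Eps8l1 show no overlap between either knockout and WT, and WT library 1 stands apart for Eps8l1 and Slc27a2.

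Fscn1 encodes fascin, which bundles actin filaments and is a classical protein of mature dendritic cells, and Eps8l1 encodes a relative of EPS8, an adaptor in actin remodelling. Fscn1 (chromosome 5, 142960343 to 142973185, plus strand) had 65.5, 65.0 and 52.6 CPM in Gα13-deficient, 53.8, 65.3 and 77.5 CPM in CD97-deficient and 98.4, 131 and 72.2 CPM in WT libraries. The Gα13-deficient libraries were all below WT, and the highest CD97-deficient library exceeded the lowest WT library. Fscn1 had a log2 fold change of -0.73 ± 0.21 in Gα13-deficient and -0.62 ± 0.21 in CD97-deficient cells, the CD97-deficient value nearest to 0 of the 10 genes. Without WT library 2 the CD97-deficient value was -0.38. Eps8l1 (chromosome 7, 4460674 to 4480487, plus strand) had 6.93, 7.48 and 2.71 CPM in Gα13-deficient, 11.002, 11.1 and 13.97 CPM in CD97-deficient and 38.7, 15.8 and 14.1 CPM in WT libraries. Neither knockout overlapped with WT, but the margin in CD97-deficient cells was narrow, and WT library 1 was more than 2-fold above the other WT libraries. Its log2 fold change was -2.09 ± 0.49 in Gα13-deficient and -0.94 ± 0.45 in CD97-deficient cells; without WT library 1 the values were -1.45 and -0.32. The cDC2 marker Cd209a was also highest in that library, at 583 CPM against 183 and 200 CPM in the other WT libraries. It had 119 to 242 CPM in Gα13-deficient and 75.8 to 120 CPM in CD97-deficient libraries. The other cDC2 markers were divided. Cd4, Flt3, Clec4a4, Zbtb46, H2-Ab1 and Notch2 were highest of the WT libraries there too. Sirpa, Irf4 and Esam were lowest there, and Itgax and Clec10a lay between. The part of Cd209a in the Eps8l1 values was not tested.

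Abca5 and Slc27a2 belong to lipid handling: Abca5 is an ABC transporter of lysosomes and late endosomes, and Slc27a2 (fatty acid transport protein FATP2) activates and takes up long-chain fatty acids. Abca5 (chromosome 11, 110269369 to 110337716, minus strand) had 19.0, 16.3 and 21.4 CPM in Gα13-deficient, 8.28, 9.23 and 7.93 CPM in CD97-deficient and 33.5, 15.1 and 41.8 CPM in WT libraries. Slc27a2 (chromosome 2, 126552407 to 126588243, plus strand) had 9.09, 8.34 and 12.4 CPM in Gα13-deficient, 5.44, 3.96 and 2.79 CPM in CD97-deficient and 18.8, 7.61 and 6.79 CPM in WT libraries. For both genes only the CD97-deficient libraries were all below WT, and the Gα13-deficient libraries overlapped with WT, which differs from the description of the 10 genes as lower in both knockouts. Abca5 had a log2 fold change of -0.66 ± 0.29 in Gα13-deficient and -1.83 ± 0.31 in CD97-deficient cells. Slc27a2 had -0.16 ± 0.36 in Gα13-deficient cells, rank 3847 of 12043, and -1.47 ± 0.40 in CD97-deficient cells, rank 67. WT library 2, the WT library with the female pattern, had the lowest Abca5 of its group. Among libraries of the female pattern alone, Abca5 was at 0.12 in Gα13-deficient and -0.83 in CD97-deficient cells and Slc27a2 at 0.14 and -0.90. Among those of the male pattern, which the CD97-deficient group lacks, Abca5 was at -0.89 and Slc27a2 at -0.27 in Gα13-deficient cells. Without WT library 1, Slc27a2 was at 0.48 in Gα13-deficient and -0.84 in CD97-deficient cells. Of the 50-base words of Slc27a2 transcripts, 9.8% occur in Gm26697, a noncoding gene on the opposite strand that overlaps it.

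Tmem123 encodes porimin, a mucin-like membrane protein, and was the most abundant of the 10 genes. It (chromosome 9, 7764041 to 7794333, plus strand) had 503, 445 and 524 CPM in Gα13-deficient, 591, 512 and 545 CPM in CD97-deficient and 935, 1106 and 807 CPM in WT libraries. Both knockouts were below WT in every library, with log2 fold changes of -0.95 ± 0.11 in Gα13-deficient and -0.79 ± 0.11 in CD97-deficient cells. Its within-group SD of log2 CPM, 0.16, was the lowest of the 10 genes. Eps8l1 had the highest, 0.65, and the median was 0.41 for the 10 genes against 0.20 for all genes tested.

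Trim6 encodes an E3 ubiquitin ligase of the tripartite motif family that acts in interferon signalling in human cells. Trim6 (chromosome 7, 104218793 to 104235152, plus strand) had 2.27, 4.87 and 5.07 CPM in Gα13-deficient, 4.26, 4.54 and 3.02 CPM in CD97-deficient and 11.8, 12.8 and 13.1 CPM in WT libraries. The WT libraries were closely grouped and all knockout libraries were below them, at 32.4% of the WT mean in Gα13-deficient and 31.4% in CD97-deficient cells. Chic1, an X-linked gene (103356476 to 103396092, plus strand) for a protein with a cysteine-rich hydrophobic domain, had 4.43, 4.52 and 4.64 CPM in Gα13-deficient, 4.73, 2.93 and 5.14 CPM in CD97-deficient and 14.3, 15.9 and 8.83 CPM in WT libraries. It too had no overlap with WT in either knockout, with log2 fold changes of -1.53 ± 0.27 and -1.60 ± 0.27 in Gα13-deficient and CD97-deficient cells; among female-pattern libraries these were -1.80 and -1.88. Nudt17, of the nudix hydrolase family (chromosome 3, 96706067 to 96708562, minus strand), had 4.997, 5.39 and 3.57 CPM in Gα13-deficient, 5.09, 8.20 and 10.4 CPM in CD97-deficient and 15.2, 18.5 and 11.4 CPM in WT libraries. Its log2 fold change was -1.72 ± 0.28 in Gα13-deficient and -0.93 ± 0.27 in CD97-deficient cells, and the knockout groups overlapped. Nudt17 and Pias3, on the opposite strand, share 4 bases at their ends.

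**Figure D2:**
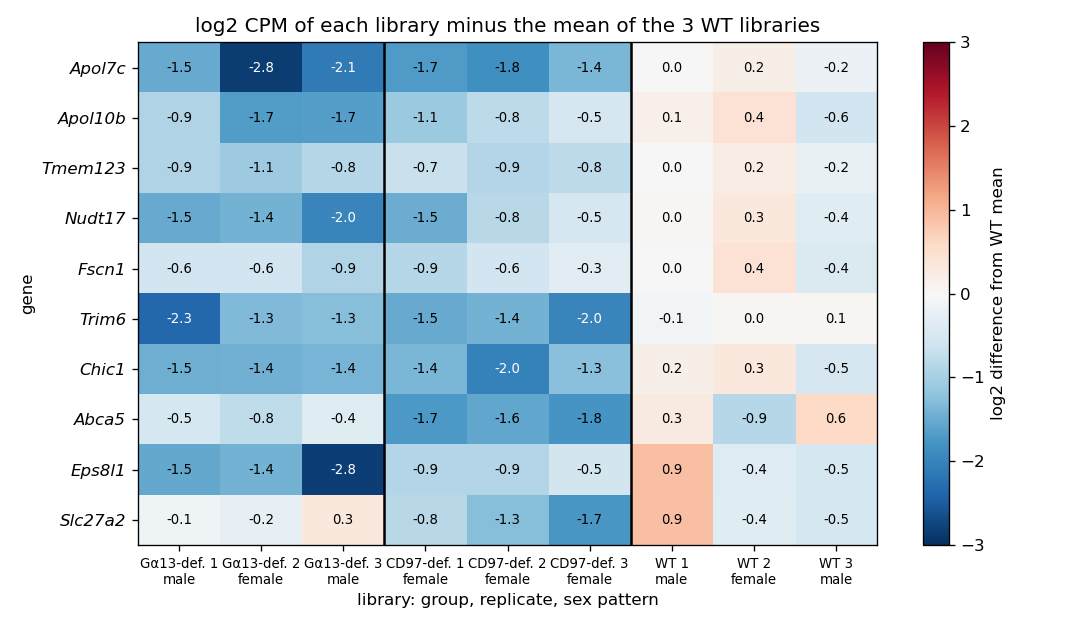
Difference in log2 CPM between each library (columns, by group, replicate and sex pattern) and the mean of the 3 WT libraries for the 10 genes (rows); blue is below and red above the WT mean. Most knockout squares of the map are blue, those of Abca5 and Slc27a2 in Gα13-deficient libraries are pale, and WT library 1 is red for Eps8l1 and Slc27a2.

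Per length of exons, the order of the WT means was Tmem123 (305 CPM per kb), Apol7c (180), Fscn1 (33.4), Nudt17 (6.70), Eps8l1 (3.79), Apol10b (3.45), Slc27a2 (2.95), Abca5 (2.63), Trim6 (2.56) and Chic1 (1.76). Tmem123, Apol7c and Fscn1 were each apart from the next gene by more than the summed SDs of both. The SDs of Nudt17 (1.59) and Eps8l1 (2.28) cover the gap between them. From Eps8l1 down to Chic1 no pair of neighbours differed by more than their summed SDs, apart from Trim6 (SD 0.14) and Chic1 (SD 0.50). In Gα13-deficient cells Apol7c was at 42.9 ± 19.0 and in CD97-deficient cells at 58.2 ± 10.1 CPM per kb, which is still above Fscn1 in each group (20.3 ± 2.44 and 21.8 ± 3.94 CPM per kb).

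**Figure D3:**
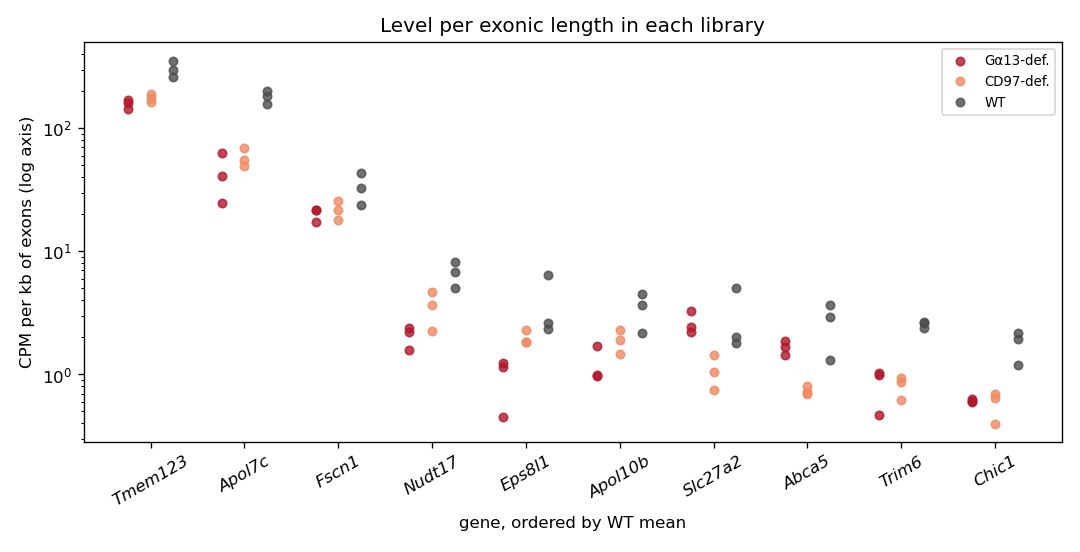
Level of the 10 genes in CPM per kb of exons (log axis), with 3 points for each of the Gα13-deficient, CD97-deficient and WT groups, ordered by the WT mean. Tmem123 (305 CPM per kb in WT) and Apol7c (180) lead in all groups, and the 6 genes from Eps8l1 to Chic1 lie between 1.76 and 3.79 CPM per kb in WT.

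Counted over the genes, 8 of 10 had all Gα13-deficient libraries below all WT libraries, where 14.0% of all tested genes did, the exceptions being Abca5 and Slc27a2. In CD97-deficient cells it was also 8 of 10, where 13.5% of all tested genes did, the exceptions being Apol10b and Fscn1. These shares only restate how the genes were selected. Apol7c, Tmem123, Nudt17, Trim6, Chic1 and Eps8l1 were below WT in both knockouts, 6 of 10, where 965 of all tested genes (8.01%) were. The median log2 fold change of the 10 genes was -1.51 in Gα13-deficient and -1.20 in CD97-deficient cells, against -0.01 and -0.003 over all tested genes. Both comparisons share the 3 WT libraries. Apart from Abca5 and Slc27a2, the genes were below WT within each sex pattern too. The same libraries chose the genes, so this also restates the selection and is no support. Female-pattern libraries hold 1 Gα13-deficient and 1 WT library. Among them, the log2 fold changes of these genes ran from -3.01 (Apol7c) to -1.0 (Fscn1) in Gα13-deficient cells. In CD97-deficient cells they ran from -1.88 (Chic1) to -0.38 (Eps8l1). Among male-pattern libraries they ran from -2.54 (Eps8l1) to -0.54 (Fscn1) in Gα13-deficient cells.

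Between the knockouts, none of the 10 genes was called by the edgeR quasi-likelihood test (0 of 10, where 0.0498% of all tested genes, 6 of 12043, were called); 4 of 10 had an unadjusted p under 0.05, as did 722 of all 12043 genes, and DESeq2 called 1, Abca5. The median difference of the 10 genes, Gα13-deficient minus CD97-deficient, was -0.14 on the log2 scale, and 0.03 with sex pattern as a term. Abca5 was 1.17 ± 0.31 log2 units higher in Gα13-deficient than in CD97-deficient cells (18.9 ± 2.54 and 8.48 ± 0.67 CPM), with every Gα13-deficient library above every CD97-deficient one (edgeR adjusted p = 0.478, 95% interval 0.49 to 1.85). Its adjusted p ran from 0.00831, with only the libraries of these groups in the fit, to 1.0 over all alternatives, and the difference was 0.95 among female-pattern libraries and 0.61 with the sex pattern as a term. Slc27a2 had the largest difference, 1.31 ± 0.40, also with no overlap (9.95 ± 2.17 against 4.06 ± 1.33 CPM; edgeR adjusted p = 0.601, interval 0.45 to 2.17). It was 1.04 among female-pattern libraries.

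Eps8l1 was the one gene with every Gα13-deficient library below every CD97-deficient library, at 5.71 ± 2.61 and 12.03 ± 1.68 CPM, a difference of -1.15 ± 0.50 (edgeR adjusted p = 0.829, interval -2.29 to -0.01). Without Gα13-deficient library 3 it was -0.75 and among female-pattern libraries -0.69. The share of all tested genes with no overlap between the knockouts was not counted. The separation of Abca5, Slc27a2 and Eps8l1 thus has no background to be read against. Nudt17 differed by -0.79 ± 0.29 with an edgeR adjusted p of 0.693 and an interval of -1.41 to -0.17. Trim6 and Chic1 had the most equal levels, with differences of 0.06 (interval -0.60 to 0.71) and 0.07 (-0.54 to 0.69), so that a difference of up to about 0.7 log2 units is not excluded for either. The interval was narrowest for Tmem123, from -0.39 to 0.07 around -0.16. Fscn1 differed by -0.11 (-0.58 to 0.36), Apol10b by -0.63 (-1.37 to 0.12) and Apol7c by -0.43 (-1.19 to 0.33). For Apol7c it was -1.23 among female-pattern libraries, of which 1 is Gα13-deficient.

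**Figure D4:**
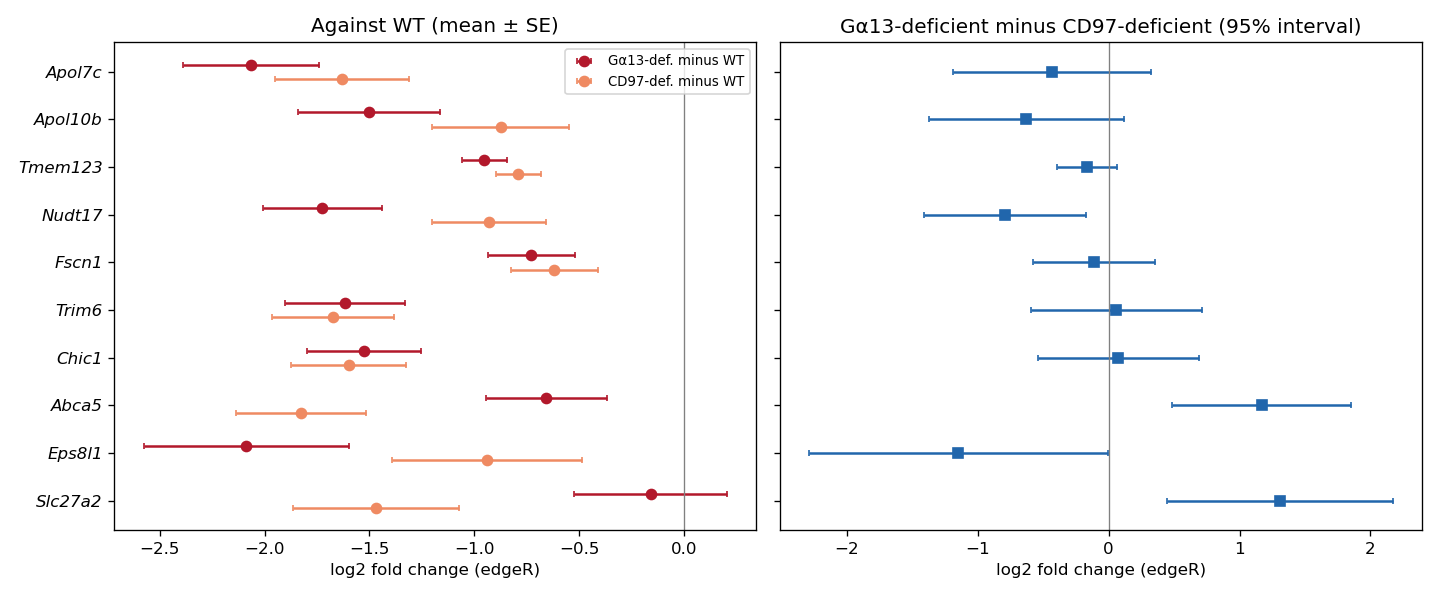
edgeR log2 fold changes of the 10 genes: left, Gα13-deficient and CD97-deficient cells against WT with SE; right, Gα13-deficient minus CD97-deficient with the 95% interval. Abca5 (1.17) and Slc27a2 (1.31) lie right of 0 in the right panel, Nudt17 (-0.79) and Eps8l1 (-1.15) left of it, and the intervals of the other 6 genes include 0.

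The other genes of the maturation programme were read from a list of 42, of which 40 passed the filter. The list was set with earlier results of these data known, so its counts are no independent support. In Gα13-deficient cells 20 of 40 were lower (5.24% of all tested genes were) and 1 was higher (5.74% of all), with a median log2 fold change of -0.51. In CD97-deficient cells 14 of 40 were lower (3.69% of all) and 0 higher (4.84% of all), with a median of -0.45. The CD97-deficient count was 6 without CD97-deficient library 1 and 9 without its library 3. With sex pattern as a term the CD97-deficient count was 10. Within the male pattern, 2 libraries a group, 11 list genes and 227 genes of the whole table were lower in Gα13-deficient cells. Within the female pattern, 10 list genes and 138 genes of the whole table were lower in Gα13-deficient cells and 13 list genes and 130 genes of the whole table in CD97-deficient cells. That fit holds 1 Gα13-deficient and 1 WT library, so its spread comes from the 3 CD97-deficient libraries alone. Cd83, a surface protein of mature dendritic cells, averaged 182 ± 19.3 CPM in Gα13-deficient, 199 ± 10.4 CPM in CD97-deficient and 325 ± 13.4 CPM in WT cells (SD, n = 3 each). It fell by 0.84 and 0.70 on the log2 scale (edgeR adjusted p = 0.000108 and 0.00059). Birc2, an inhibitor of apoptosis protein in NF-κB signalling, fell by 0.87 in each knockout. Its partner Traf1, an adaptor of TNF receptors, fell by 0.55 in Gα13-deficient and 0.52 in CD97-deficient cells. Ccl5, a chemokine that attracts T cells, fell by 0.94 in Gα13-deficient and 1.20 in CD97-deficient cells. Ccr7, the chemokine receptor that brings matured dendritic cells into T cell areas, was added after its values were seen and averaged 85.6 ± 19.4 CPM in Gα13-deficient, 71.3 ± 15.7 CPM in CD97-deficient and 187 ± 16.4 CPM in WT cells. The 1 gene that rose in Gα13-deficient cells was Net1, an exchange factor for RhoA, by 0.69 ± 0.15 (edgeR adjusted p = 0.00817). Among female-pattern libraries Net1 was at only 0.28 in Gα13-deficient cells, with Ccr7 at -1.06, Ccl5 at -0.68 and Traf1 at -0.51. These are effect sizes from the fit with 1 Gα13-deficient and 1 WT library, and no call is read from them. Between the knockouts, 0 of the 40 genes were called by edgeR.

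**Figure D5:**
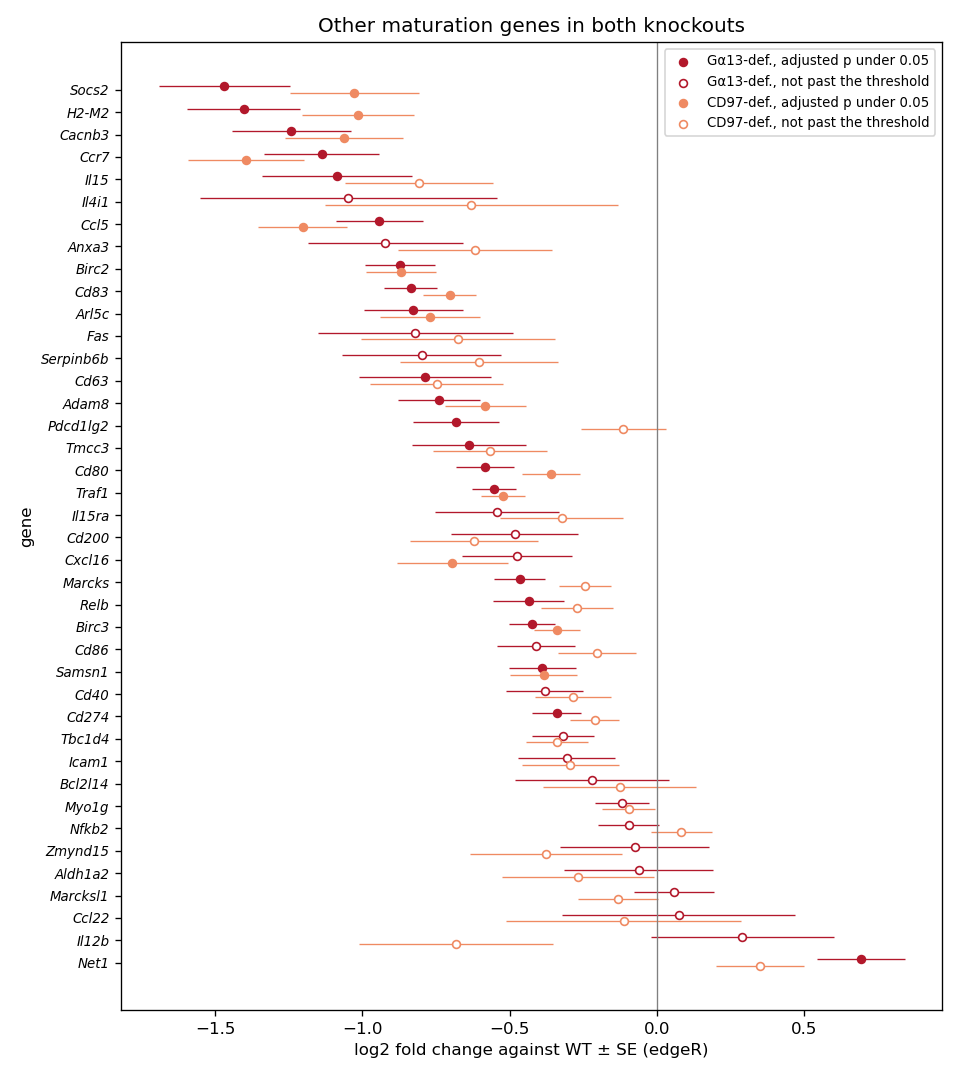
edgeR log2 fold change against WT with SE of the 40 other maturation genes in Gα13-deficient and CD97-deficient cells, ordered by the Gα13-deficient value; filled points passed the adjusted p threshold of 0.05. Most points lie left of 0, with Net1 (0.69) at the right end in Gα13-deficient cells.

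Relatives of the 10 genes were counted in the same fit. Of 21 tested genes of lipid transport and fatty acid activation, 0 were called in either direction in Gα13-deficient or in CD97-deficient cells. Of 21 tested genes of actin bundling and the EPS8 complex, Diap3, a formin listed under its older symbol, was higher in both knockouts, by 0.96 in Gα13-deficient and 0.80 in CD97-deficient cells. That is 4.76% of the list in each knockout, against 5.74% of all tested genes in Gα13-deficient and 4.84% in CD97-deficient cells. Eps8l2 (-1.65), Abi3 (-0.35) and Wasl (-0.41), which act in actin assembly, fell in CD97-deficient cells, 14.3% of the list against 3.69% of all tested genes. Eps8l2 rested on 3.42 ± 1.41 CPM in Gα13-deficient, 1.30 ± 0.66 CPM in CD97-deficient and 4.20 ± 0.87 CPM in WT cells. These CD97-deficient calls were lost when single libraries were left out: Diap3 without any one CD97-deficient library or WT library 1 (edgeR adjusted p = 0.0644 to 0.0886), Eps8l2 without any one CD97-deficient library or WT library 1 or 3 (0.0553 to 0.129), Abi3 without Gα13-deficient library 2, CD97-deficient library 1 or 3 or WT library 3 (0.0575 to 0.175) and Wasl without CD97-deficient library 1 or 3 or WT library 1 (0.0632 to 0.153). With sex pattern as a term in the fit, all 4 were lost (edgeR adjusted p = 0.194 for Diap3, 0.118 for Eps8l2, 0.245 for Abi3 and 0.251 for Wasl). In Gα13-deficient cells Diap3 was at 0.57 among female-pattern libraries, where 1 Gα13-deficient and 1 WT library allow no call to be read. Of 9 tested relatives of Trim6, Trim30b fell by 0.62 in Gα13-deficient and 0.75 in CD97-deficient cells and Trim34a by 0.52 in Gα13-deficient and 0.46 in CD97-deficient cells. Trim30d fell by 0.51 in CD97-deficient cells, a call lost without CD97-deficient library 3 (edgeR adjusted p = 0.0514), and had -0.16 in Gα13-deficient cells. The calls are 22.2% of these relatives in Gα13-deficient and 33.3% in CD97-deficient cells, against 5.24% and 3.69% of all tested genes. With sex pattern as a term, the CD97-deficient calls of Trim34a (edgeR adjusted p = 0.0724) and Trim30d (0.108) were lost. Trim34a was also lost in Gα13-deficient cells within the male pattern (edgeR adjusted p = 0.0805). Within the female pattern, which holds 1 Gα13-deficient and 1 WT library, no call is read for any of these genes. There Trim30b was at -0.48 and Trim34a at -0.60 in Gα13-deficient cells. In CD97-deficient cells of that pattern Trim30b was at -0.52, Trim34a at -0.47 and Trim30d at -0.50. Of 17 tested nudix genes, 1 was lower in Gα13-deficient cells, Nudt16 (-0.74), which at 5.88% is close to the 5.24% of all tested genes, and 0 were called in CD97-deficient cells. Within the female pattern Nudt16 was at -0.50 in Gα13-deficient cells, and no call is read there either.

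The genes whose 9-library pattern was most like the mean pattern of the 10 genes were sought among 10189 genes by the root-mean-square distance of centred log2 CPM. They were Gbp8 (0.18), Deptor (0.19), Loxl3 (0.20), Ahrr (0.20), Nlrp1c-ps (0.21), Il18rap (0.21), Gbp4 (0.22) and Adcy6 (0.22). Of the 10 genes themselves, Tmem123 was closest to their mean (0.22), and Slc27a2 (0.73), Abca5 (0.66) and Eps8l1 (0.63) were farthest from it. Gbp8, a guanylate-binding protein, averaged 156 CPM in Gα13-deficient, 156 CPM in CD97-deficient and 314 CPM in WT cells. Il18rap, a subunit of the interleukin 18 receptor, averaged 2.15 CPM in Gα13-deficient, 2.46 CPM in CD97-deficient and 6.00 CPM in WT cells. These genes were picked for their likeness, so their values are a description.

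Genes of cell division moved the other way. All 14 on the list were higher in each knockout by edgeR, against 5.74% of all tested genes in Gα13-deficient and 4.84% in CD97-deficient cells. Their median log2 fold changes were 1.05 in Gα13-deficient and 1.0 in CD97-deficient cells, against -0.01 and -0.003 over all tested genes. Their summed level was 3358 to 4021 CPM in Gα13-deficient, 3289 to 3538 CPM in CD97-deficient and 1482 to 2111 CPM in WT libraries. Markers of plasmacytoid dendritic cells summed to 216 to 327 CPM in Gα13-deficient, 170 to 193 CPM in CD97-deficient and 152 to 207 CPM in WT libraries. By edgeR, 2 of these 7 were higher in Gα13-deficient cells (28.6%, against 5.74% of all tested genes) and 0 were called in CD97-deficient cells. Markers of red pulp macrophages summed to 592 to 929 CPM in Gα13-deficient, 468 to 1735 CPM in CD97-deficient and 421 to 1359 CPM in WT libraries. Of these 11, edgeR called 1 lower in each knockout (9.09%, against 5.24% of all tested genes in Gα13-deficient and 3.69% in CD97-deficient cells). Type 1 dendritic cell markers summed to 1735 to 1797 CPM in Gα13-deficient, 1848 to 1976 CPM in CD97-deficient and 1751 to 1916 CPM in WT libraries, mostly Wdfy4, at 1464 to 1778 CPM across all libraries. Of these 7, edgeR called 1 higher and 1 lower in Gα13-deficient cells (14.3% each, against 5.74% and 5.24% of all tested genes). In CD97-deficient cells 1 was higher (14.3%, against 4.84% of all). Monocyte markers summed to 431 to 455 CPM in Gα13-deficient, 338 to 513 CPM in CD97-deficient and 320 to 493 CPM in WT libraries. Of the 5 tested, edgeR called 1 higher in Gα13-deficient cells (20%, against 5.74% of all tested genes) and 0 in CD97-deficient cells. Markers of B cells, T cells, natural killer cells and neutrophils each summed to at most 108 CPM in any library, and up to 4 of 6 natural killer cell and 2 of 6 T cell markers were at 0 in a library. Of these sums, only that of the cell division genes lay apart from WT in both knockouts. Outside that list 5 single markers did so too, named here after their values were seen. Cd4, a cDC2 marker, had 343 to 484 CPM in Gα13-deficient, 360 to 425 CPM in CD97-deficient and 530.0 to 824 CPM in WT libraries. Emr1, the older symbol for the macrophage marker F4/80, had 154 to 193 CPM in Gα13-deficient, 165 to 201 CPM in CD97-deficient and 241 to 326 CPM in WT libraries. Batf3 and the B cell marker Cr2 were also lower than every WT library in both knockouts, and Tcf4, a marker of plasmacytoid dendritic cells, was higher. The part of cell division genes and of these markers in the values of the 10 genes was not tested.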

How the data were processed

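RNA-seq of splenic cDC2s gave 9 libraries, 3 each from Gα13-deficient, CD97-deficient and WT mice, grouped by sample title. The deposited table holds the authors' whole-number counts per gene symbol, and the submitters' processing notes name STAR, HTSeq, DESeq2 and mm10 but give no versions. The annotation and whether counting used strand are not given in the sources used here. No gene in the table has under 10 counts in total. The source names tied each WT column to its sample. Separate mice are not stated for the libraries of a group, so p-values measure the spread among these libraries alone. In the Gα13-deficient and WT groups, library 2 had the female and libraries 1 and 3 the male pattern. Library 2 thus came from a different mouse than libraries 1 and 3 of its group. Whether libraries 1 and 3, or the CD97-deficient libraries, are separate mice is unknown, and their spread may be technical.

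Counts as deposited went into edgeR 4.0.16 under R 4.3.3 (TMM, default expression filter, robust quasi-likelihood fit on all 9 libraries by genotype), which kept 12043 genes and removed 2166. P-values were adjusted over all of them by the Benjamini-Hochberg method at 0.05. CPM is on the TMM scale, and log2 CPM has a prior count of 2. The members and lists were chosen with earlier results of these data known. Named genes are the members, Cd97, Gna13, detected Apol genes, up to 4 genes per list and direction with the smallest p, and the 8 with the nearest pattern. Positions and exon lengths are from GENCODE mouse release 21, in which 12799 symbols were found directly. Sex pattern was read from Xist against Y-linked genes.

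Same-number libraries of the Gα13-deficient and WT groups deviated together weakly (correlations 0.18, 0.13 and 0.11, all above 0.1). Those of CD97-deficient and WT (0.06, -0.30 and 0.06) and of the knockouts (0.01, -0.04 and -0.07) did not. In the Gα13-deficient and WT groups, libraries of the same number also share the sex pattern, so pairing and sex pattern cannot be told apart. The main fit had no term for pairs, and a replicate block by library number was run only as an alternative. Alternatives were RLE factors, library totals, no filter, DESeq2 1.42.0, fits of only the groups compared, the replicate block, sex pattern as a term, libraries of one sex pattern and leaving out each library. Counts limit precision, and 3 counts were used as the floor.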

Additional observations from a re-analysis of the deposited data

How the results depend on the processing

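The 10 genes had the same sign against WT as reported under every alternative run, except that in Gα13-deficient cells Abca5 was at 0.12 and Slc27a2 at 0.14 among female-pattern libraries, and Slc27a2 at 0.48 without WT library 1 (-0.40 to 0.48 over the refits that leave out a library). Leaving out 1 library at a time gave medians of the 10 genes between -1.66 and -1.32 in Gα13-deficient and between -1.36 and -0.89 in CD97-deficient cells against WT, and between -0.20 and -0.13 for Gα13-deficient minus CD97-deficient cells, where 0 to 1 of the genes were called.

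For the maturation list, leaving out 1 library at a time gave 14 to 22 lower and 1 higher in Gα13-deficient cells and 6 to 16 lower, with 0 higher, in CD97-deficient cells; the fewest of these refits came without Gα13-deficient replicate 2 (14) and without CD97-deficient replicate 1 (6). DESeq2 gave 24 and 18 lower. Over the whole table leaving out a library gave 404 to 805 higher and 289 to 654 lower in Gα13-deficient, 225 to 721 higher and 139 to 550 lower in CD97-deficient cells, and 3 to 17 higher and 1 to 18 lower between the knockouts.

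With libraries of the female pattern alone, 117 genes were higher and 138 lower in Gα13-deficient cells (maturation list 0 and 10), 103 and 130 in CD97-deficient cells, and 13 and 11 between the knockouts; single Gα13-deficient and WT libraries are assumed there to vary like the CD97-deficient ones. With the male pattern alone, an alternative added after seeing the data, Gα13-deficient cells had 384 higher and 227 lower genes, 11 of them lower in the list. Sex pattern as a term gave 130 higher and 92 lower in CD97-deficient cells and 1 lower between the knockouts.

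Between the knockouts, higher and lower calls were 39 and 18 with DESeq2 and 37 and 16 with only these groups fitted, with 1 member, Abca5, in each. RLE factors left 1 lower, and no filter gave 8 higher. With the replicate block 12 were higher; with the block and only these groups, added after seeing the data, 63 were higher and 10 lower, with 1 member. The block changed no count against WT by over 1.5 times. The causes of these changes were not tested. The reduced fits also hold fewer libraries. Depth limits the genes at a few CPM, such as Apol10b, which rests on 13 counts in one library.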
